A study of Mus musculus with 12 samples.

Results

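The genes described here encode the proteins that dock, prime and fuse synaptic vesicles at nerve terminals. They were chosen by name, as 35 listed genes of the vesicle membrane, the calcium-sensing proteins, the fusion machinery, the Rab3 GTPases and the active zone. The names matched 36 of the 38924 gene IDs in the deposited tables, because Pclo had 2 IDs, and all 36 were among the 17765 genes that passed the filter on low counts.

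The RNA was extracted from the entire spinal cord of B6J.Cg mice, 8 weeks old. The mice were wild type (WT) or carried 1 copy of the C201R allele of Gars, a germline point change in the gene of glycyl-tRNA synthetase, which loads glycine onto its tRNAs. Dominant changes in Gars cause peripheral neuropathy, a disease of motor and sensory axons. There were 12 polyA libraries, numbered 1 to 12, with totals of 27175421 to 38271405 estimated counts. Genotype was labelled in both the title and the library name, and the labels disagreed in 4 libraries. By the name of the library, 1, 2, 3, 4, 9 and 10 were C201R and 5, 6, 7, 8, 11 and 12 were WT. By the title, 1, 2, 3, 10, 11 and 12 were C201R and 4 to 9 were WT. Both groupings are reported, with the 8 libraries that both labels put in the same group (C201R 1, 2, 3 and 10, WT 5 to 8). These 3 comparisons share libraries, so they do not test each other. The titled sex entered each fit as a term, although Xist and Y-linked RNA went against it in 6 libraries (2, 3, 4, 5, 6 and 8). Without that term, 2 members in place of 1 passed by library name, and 4 in place of 7 along the library number. Over all 17765 genes tested, 142 in place of 127 passed by library name, and 68 in place of 1134 along the library number. By Xist and Y-linked RNA, every library titled C201R read as female except library 10, and every library titled WT as male except library 8. By title and in the 8 libraries, genotype was therefore largely confounded with sex by RNA, which the titled sex does not correct. The library-name groups each held both sexes by RNA, in equal number. No label says how many animals gave each library.

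At a nerve terminal, synaptic vesicles filled with transmitter are tethered at the active zone, a protein scaffold that also holds the calcium channels. The vesicle protein synaptobrevin (Vamp1, Vamp2) and the plasma membrane proteins syntaxin (Stx1a) and SNAP-25 (Snap25) zip into a SNARE complex that pulls the membranes together, and complexins hold that complex ready. Calcium entering with an action potential binds synaptotagmin, which triggers fusion, after which NSF and its SNAP adaptors take the SNARE complex apart. In the spinal cord these genes are transcribed by motor neurons, whose terminals lie on muscle, and by the interneurons and projection neurons whose synapses lie within the cord. In bulk tissue, fewer cells of a type and less RNA per cell cannot be told apart.

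The sequence upstream of the start is shown for 3 members on which the results turn. Rab3b was the member that passed the test between the library-name genotypes, the groups of Vamp1 did not overlap in that comparison, and Syn1 had the lowest p along the library number. Each is the 250 bases before the start in RefSeq (GRCm38.p6), 5′ to 3′ on the strand of the gene. Capitals mark the GC box GGGCGG, read on either strand, where neighbouring boxes may overlap, and the cAMP response element TGACGTCA.
Rab3b, chr4:108878820-108879069, plus strand: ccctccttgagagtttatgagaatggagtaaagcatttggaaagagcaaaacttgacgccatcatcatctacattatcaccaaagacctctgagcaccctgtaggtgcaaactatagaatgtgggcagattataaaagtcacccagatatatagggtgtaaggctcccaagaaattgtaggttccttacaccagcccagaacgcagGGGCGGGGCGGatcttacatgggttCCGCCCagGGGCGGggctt
Vamp1, chr6:125215331-125215580, plus strand: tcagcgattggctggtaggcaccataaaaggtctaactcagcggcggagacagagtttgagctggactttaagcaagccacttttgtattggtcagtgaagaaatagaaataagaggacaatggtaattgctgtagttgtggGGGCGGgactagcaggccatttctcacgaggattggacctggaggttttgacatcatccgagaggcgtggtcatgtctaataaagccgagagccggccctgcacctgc
Syn1, chrX:20920919-20921168, minus strand: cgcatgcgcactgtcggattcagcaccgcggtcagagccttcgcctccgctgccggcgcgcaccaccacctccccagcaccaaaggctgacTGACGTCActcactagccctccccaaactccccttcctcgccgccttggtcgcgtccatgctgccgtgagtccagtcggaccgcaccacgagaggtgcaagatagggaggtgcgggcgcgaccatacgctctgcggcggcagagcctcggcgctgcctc

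RefSeq windows of this length were at hand for 27 of the 35 genes, 36 windows in all, because some genes have several starts. The GC box stood in 20 of the 36 windows (55.6%), those of 19 genes, against 32.7% of the 32851 windows of all genes. Rab3b held 4 boxes, 2 of them overlapping, in the 44 bases nearest to its start, and Vamp1 held 1. The cAMP response element stood in 1 member window (2.78%), that of Syn1, against 1.55% of all windows. The letters TATAAA, on either strand, stood in 3 member windows (8.33%), those of Rab3b and Sv2b, against 12.4% of all. Member windows held a median of 11 CG pairs, against 6 in all windows. A match describes the letters only and is no evidence that a factor binds there.

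Levels were compared between genes in TPM (transcripts scaled to a fixed total per library), which correct for transcript length. Median TPM over the 12 libraries spanned 636-fold, from 1868 for Snap25 to 2.94 for Rab3d, and 15 of the 36 rows had a median above 100. The genes were steady across libraries: the median ratio of the highest to the lowest library was 1.2, and the widest was 2.48, for Rab3d, a Rab3 isoform best known from secretory cells outside the nervous system. The order of levels was resolved in part only. Of 35 neighbouring pairs in that order, 11 had ranges over the libraries that did not overlap.

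Among the fusion proteins, Snap25 lay between 1790 and 2015 TPM, clear of every other member. Cplx1, the complexin of fast synapses, had a median of 835 TPM and Vamp1 one of 731, and their ranges overlapped. Vamp2 had a median of 257 TPM and Cplx2 one of 106. Nsf, the ATPase that separates used SNARE complexes, stood at a median of 432 TPM, and its adaptors Napb and Napa at 177 and 175 with overlapping ranges. Stx1a, the syntaxin of the release machinery listed here, was low, with a median of 15.8 TPM.

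On the vesicle itself, Syp, which encodes the membrane protein synaptophysin, had a median of 511 TPM. Syn1, Syn2 and Syn3 encode synapsins, which tether vesicles in the reserve pool, and had medians of 217, 124 and 22.7 TPM. Sv2c and Sv2b, transporter-like vesicle glycoproteins, had medians of 89.5 and 46.3 TPM. Rab3a, the main Rab GTPase of synaptic vesicles, had a median of 562 TPM, followed by Rab3c at 70.6 and Rab3b at 31.0. Rab3a and Syp thus stood highest among the vesicle and Rab3 genes. Rab3b and Syn3 were low, and Rab3d, with a median of 2.94 TPM, was the lowest.

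Calcium-binding and related proteins also spread widely. Syt11 led them with a median of 503 TPM and Syt4 had 75.3. These synaptotagmins lack the calcium binding of the fast sensors, so the name of the list does not hold for them. Rph3a, which encodes the Rab3 effector rabphilin, had a median of 352 TPM. The fast sensors Syt2 and Syt1 had medians of 220 and 95.8 TPM, the slower sensor Syt7 had 55.2, and Syt3, Syt5 and Doc2b had 79.4, 26.5 and 5.73. Each active-zone gene had a median below 100 TPM. Unc13a and Unc13c, which encode Munc13 priming proteins, had medians of 58.1 and 54.5 TPM. The scaffold genes Rims1, Bsn, Rims2 and Erc2 had 40.6, 31.6, 18.3 and 13.6 TPM, and Pclo had 32.6 under its first ID. The second Pclo ID lay between 11.0 and 18.1 TPM.

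**Figure D1:**
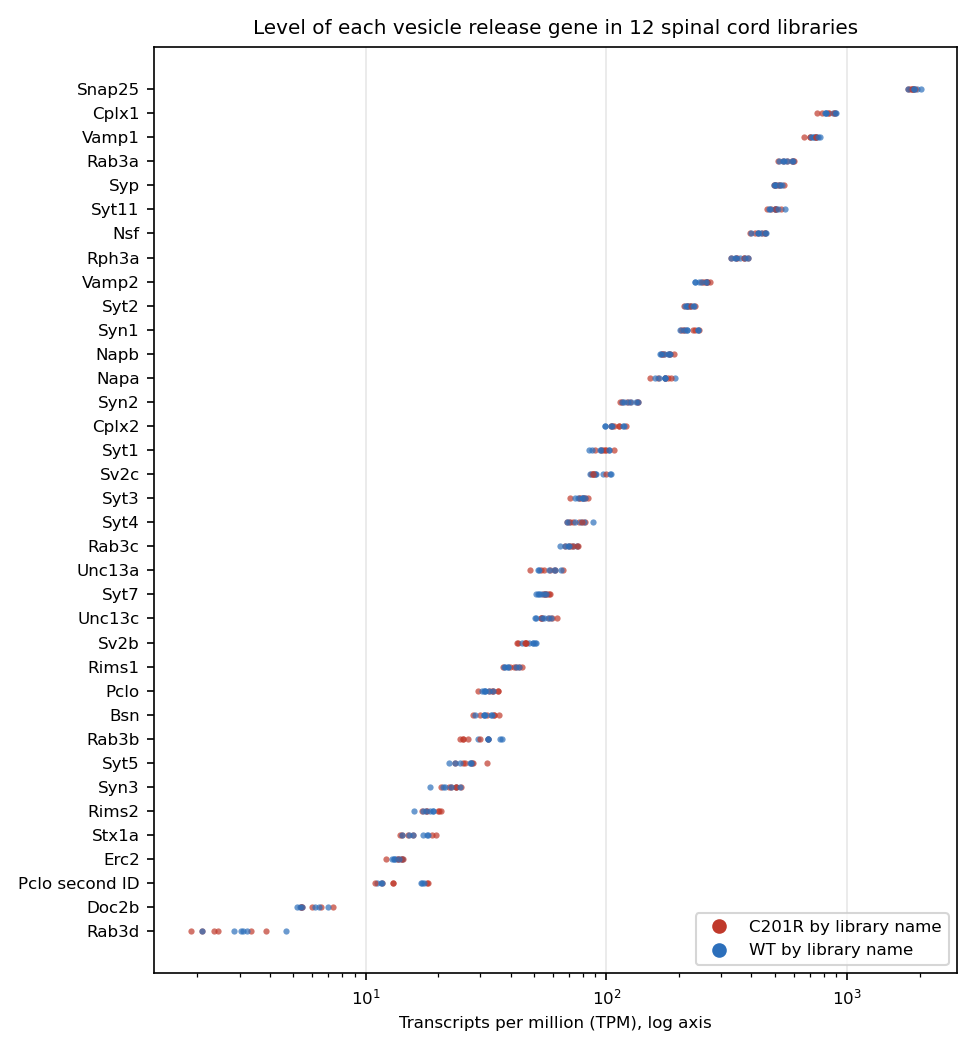
Level of each of the 36 gene IDs in the 12 libraries, in TPM on a log axis, ordered by the median. Each point is 1 library, coloured by library-name genotype. Snap25 stands apart at 1790 to 2015 TPM and Rab3d lies lowest at 1.88 to 4.66, and the colours lie mixed for most genes.

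Where related genes do the same task, 1 of them usually held most of the TPM. Syt2 held between 67.6% and 72.3% of the sum of Syt1 and Syt2, with a median of 69.5%. Vamp1 held between 71.7% and 76.1% of the sum of Vamp1 and Vamp2. Cplx1 held a median of 88.5% of the sum of Cplx1 and Cplx2. In each of these 3 pairs the same gene led in all 12 libraries. Syt2 and Vamp1 are known as the isoforms of brainstem, cord and neuromuscular synapses, whereas Syt1 and Vamp2 predominate in the forebrain.

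Rab3a held a median of 84.6% of the Rab3 sum, Rab3c 10.4%, Rab3b 4.58% and Rab3d 0.43%. Sv2a, which is not among the 35 genes, held a median of 60.8% of the SV2 sum, before Sv2c with 25.8% and Sv2b with 13.4%. Rims1 held 68.9% of the sum of Rims1 and Rims2, and Syn1 60.1% of the synapsins. Napa and Napb were close to equal, with Napa at 49.2%, and so were Unc13a and Unc13c, at 45.8% and 44.3% of a Munc13 sum in which Unc13b had 10.2%. RSEM divides reads that fit several genes, so shares of close paralogs carry that uncertainty.

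The shares were mostly alike in both library-name groups. Rab3b was an exception: its share ran from 3.70% to 4.57% in the C201R libraries and from 4.59% to 5.58% in the WT libraries, and the groups did not overlap. The share of Sv2a ran from 61.0% to 62.5% in C201R and from 57.1% to 60.7% in WT, again without overlap. A share also depends on the other genes of its family. Sv2a itself had a log2 difference of 0.02 between these groups (adjusted p of 0.771 in the edgeR test used below), and its scaled counts overlapped. Each share of the other families overlapped between the groups, as did those of Sv2b and Sv2c.

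**Figure D2:**
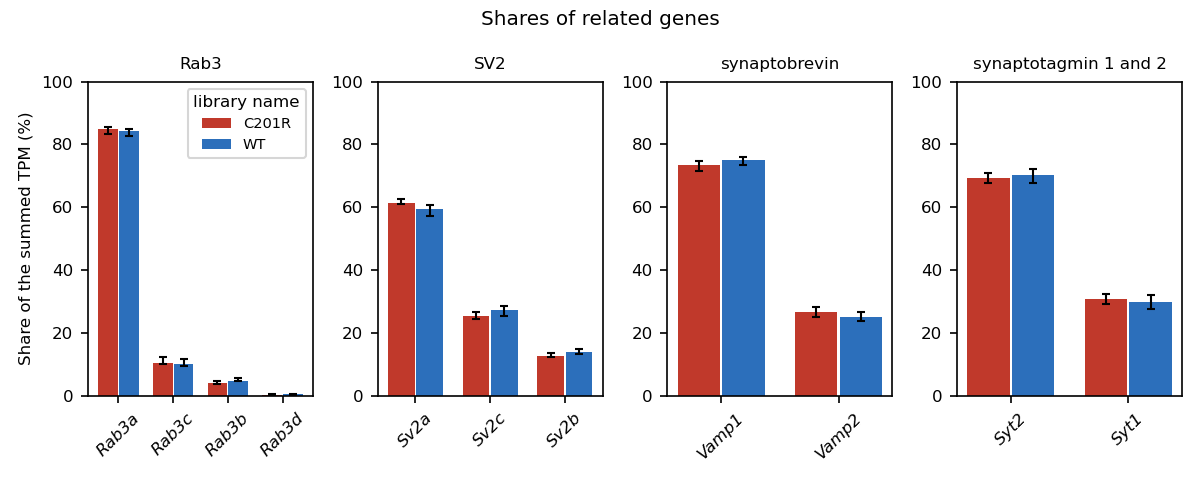
Share of the summed TPM held by each gene of 4 families, in percent, by library-name genotype. Bars are medians of 6 libraries and whiskers run from the lowest to the highest library. Syt2, Vamp1 and Rab3a lead their families in both groups, and the whiskers of Rab3b and of Sv2a do not overlap.

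The tissue and its composition were checked with marker genes. All 7 Hox genes of spinal cord position were above 0 in every library. The 12 pan-neuronal genes summed to between 4124 and 4739 TPM in C201R and between 4241 and 4698 TPM in WT by library name, which overlapped. The 10 motor neuron genes summed to between 174 and 210 TPM in C201R and between 244 and 357 TPM in WT, without overlap. By the test used below 4 of the 10 fell in that comparison (40.0%, against 0.546% of all genes tested). The fitted value was below 0 for 8 of the 10 and above 0 for 2. Prph and Ahnak2, with medians of 74.6 and 72.95 TPM, weighed most in the sum, and Chat had 14.59. Skeletal muscle genes summed to between 31.9 and 3366 TPM, in an order that followed neither genotype label, and genes of red blood cells to between 1516 and 10100 TPM. Fat genes summed to between 2.2 and 654.1 TPM. Genes of dorsal root ganglion, a neuronal tissue, summed to between 0.56 and 35.89 TPM, and were highest in libraries 6, 2 and 12.

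Gars itself was measured first. By library name its TMM-scaled counts (CPM, a count relative to the effective size of its library) ran from 143.3 over a median of 150.9 to 154.7 in C201R, and from 129.8 over 136.2 to 142.2 in WT. Every C201R library lay above every WT library. The log2 difference was 0.15 ± 0.03 (SE), with an adjusted p of 0.0343 in the quasi-likelihood test of edgeR with Benjamini-Hochberg adjustment. By title it was 0.03 ± 0.05 with an edgeR adjusted p of 0.934. A missense change alters the protein and need not alter the RNA level, so these values do not settle which label is right.

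Between the library-name genotypes the vesicle release genes differed little. Rab3b was the only member that fell in C201R, by 0.33 on the log2 scale, and none rose. Thus 1 of 36 members passed an adjusted p of 0.05, against a background of 0.715% of all genes tested (0.546% lower in C201R), and a single gene is too few to set apart from it. At an unadjusted p under 0.05 there were 4 members, all lower in C201R, namely Rab3b, Sv2b, Snap25 and Vamp1, which is 11.1% of the list against 12.8% of all genes. The fitted value was below 0 for 26 members and above 0 for 10, with a median of -0.02 and a range of -0.33 to 0.08. The share below 0 was 72.2%, against 49.1% of all genes tested and 75.0% of the 12 pan-neuronal markers. On the TPM scale, where the median of all genes sat at 0.03, 15 members were below 0, and 26 of 36 were below the median of all genes.

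For most members the data limited a difference to a narrow span. The 95% interval of the log2 difference lay within 1.2-fold in both directions for 33 of 36 members (91.7%), against 57.7% of all genes tested, and the exceptions were Rab3b, Rab3d and the second Pclo ID. The median SE was 0.04 for the members and 0.07 for all genes. Counts were high: every member but Rab3d had at least 322 counts in each library, and Snap25 had between 53400 and 70877.

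**Figure D3:**
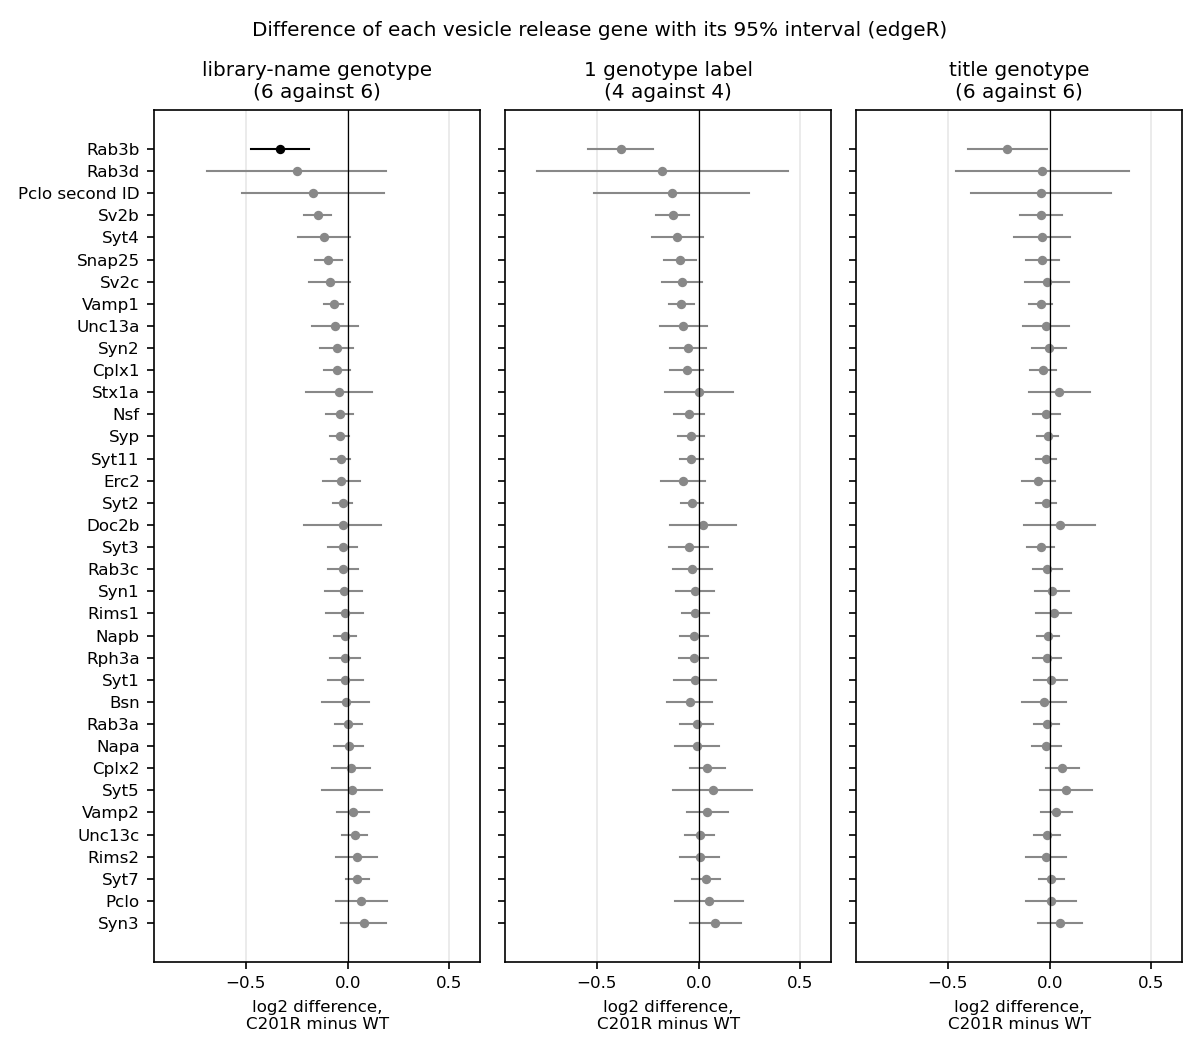
Fitted log2 difference, C201R minus WT, of each member with its 95% interval, by library-name genotype (left), in the 8 libraries with 1 genotype label (middle) and by title (right). Black marks an edgeR adjusted p up to 0.05, which Rab3b reached on the left only. Most intervals are short and cross 0, and those of Rab3d and the second Pclo ID are the widest.

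Rab3b encodes a Rab3 isoform with a more restricted pattern among neurons than Rab3a. In CPM it ran from 16.9 over a median of 17.5 to 20.8 in the C201R libraries and from 20.6 over 22.0 to 25.3 in the WT libraries by library name. The only overlap was library 9, named C201R, at 20.80, which lay above library 8, named WT, at 20.57. The log2 difference was -0.33 ± 0.07 with a 95% interval of -0.47 to -0.19 and an edgeR adjusted p of 0.039.

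Of the 4 libraries with conflicting labels, library 4 (titled WT, named C201R) had 17.1 CPM of Rab3b and lay among the C201R libraries. Library 9 (titled WT, named C201R) had 20.8, and libraries 11 and 12 (titled C201R, named WT) had 20.9 and 21.1, between the lowest and highest of the undisputed WT libraries. The other Rab3 genes had log2 differences of 0.00 ± 0.03 for Rab3a, -0.02 ± 0.03 for Rab3c and -0.25 ± 0.20 for Rab3d, none of which passed.

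The adjusted p of Rab3b lay close to the threshold and the call rested on the whole set of libraries. It was lost in 14 of 22 alternative settings, among them the TPM scale (adjusted p of 0.215 and 0.208 with limma). Leaving out any 1 of 10 libraries ended it, and it held without library 8 or without library 9. It was also lost without the 4 libraries richest in muscle transcripts, a check added after seeing the data, where the log2 difference was -0.38. Its log2 difference stayed between -0.39 and -0.28 in all of these settings, with adjusted p from 0.00109 to 0.23. The summed motor neuron markers were also lower in the libraries named C201R than in those named WT, and their part in the Rab3b result was not tested. GENCODE M21 places Rab3b at chr4:108879063-108943324 on the plus strand and lists an opposite-strand gene, 8030443G20Rik, that shares exon sequence with it. That gene had at most 0.22 TPM in any library, against at least 24.6 TPM for Rab3b.

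Sv2b encodes 1 of the 3 SV2 vesicle glycoproteins. It ran from 117.5 over 122.9 to 126.3 CPM in C201R and from 127.9 over 137.1 to 142.8 CPM in WT by library name. All 6 C201R libraries lay below all 6 WT libraries, and libraries 4 and 9, titled WT, were at 117.5 and 123.2 with the C201R libraries. The log2 difference was -0.15 ± 0.03, with an interval of -0.21 to -0.08 and an edgeR adjusted p of 0.0528, just above the threshold. The adjusted p was 0.00168 with DESeq2 and 0.0333 without library 8, and Sv2b passed in 4 of the 22 alternative settings. Its opposite-strand neighbour 1500012K07Rik had at most 0.28 TPM.

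Vamp1 encodes the synaptobrevin that serves the neuromuscular junction and other fast synapses. It ran from 941 over 983.7 to 1006 CPM in C201R and from 1011 over 1031 to 1037 CPM in WT, and the groups did not overlap. The difference was small: -0.07 ± 0.02 on the log2 scale, with an edgeR adjusted p of 0.208. Sv2b and Vamp1 were the 2 of 36 members (5.56%) whose groups did not overlap, against 1.64% of all genes tested.

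Snap25 ran from 1823 over 1899 to 1931 CPM in C201R and from 1869 over 1987 to 2097 CPM in WT. Libraries 5, 7 and 8 were the highest at 2035 to 2097 CPM, whereas WT libraries 6 and 11 lay among the C201R libraries. Its log2 difference was -0.09 ± 0.03 with an edgeR adjusted p of 0.195.

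**Figure D4:**
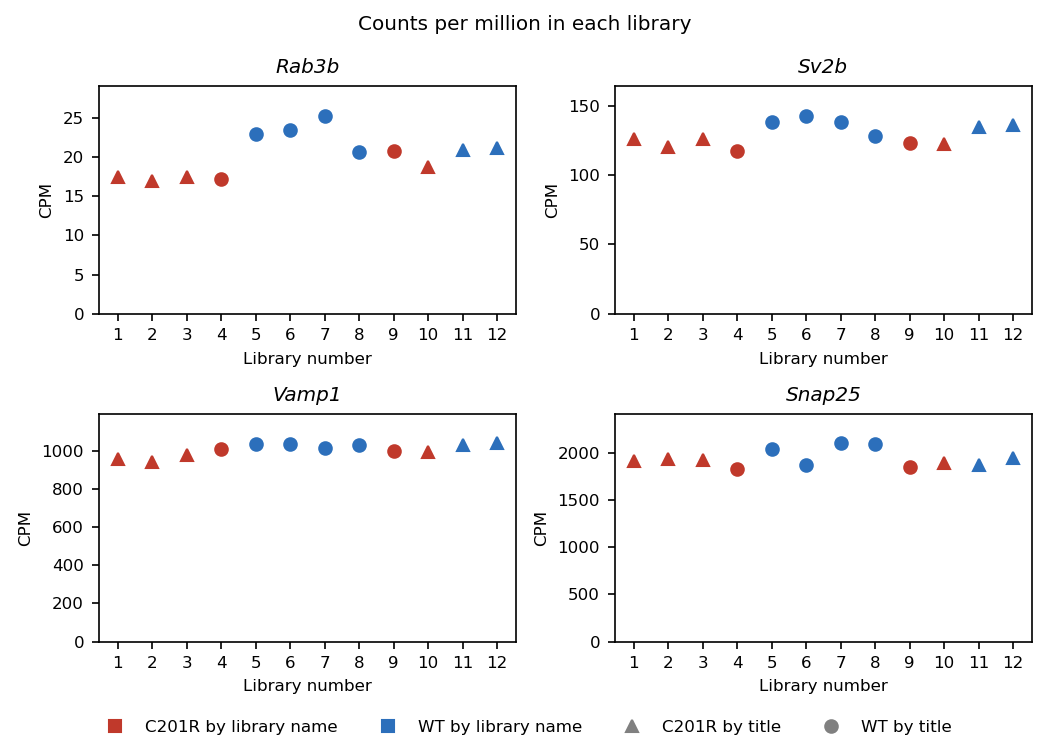
Level in CPM of Rab3b, Sv2b, Vamp1 and Snap25 in libraries 1 to 12, with axes from 0. Colour gives the genotype by library name and shape the genotype by title. Sv2b and Vamp1 separate by colour, Rab3b does so except for libraries 8 and 9, and no gene separates by shape.

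The next members by p did not pass, and their groups overlapped. Syt4 ran from 133.2 over 146.3 to 165.0 CPM in C201R and from 130.8 over 153.5 to 174.3 CPM in WT, with a log2 difference of -0.12 ± 0.06 and an edgeR adjusted p of 0.44. Sv2c ran from 181.5 over 190.7 to 207.0 CPM and from 190.0 over 205.6 to 222.1 CPM, with -0.09 ± 0.05 and 0.458. The spread of these genes within each group was as wide as the gap between the groups.

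Syt7 had a fitted value above 0, with 184.1 over 187.3 to 193.9 CPM in C201R against 178.5 over 180.5 to 188.9 CPM in WT, a log2 difference of 0.05 ± 0.03 and an edgeR adjusted p of 0.483. Syp ran from 628.7 over 646.1 to 667.4 CPM in C201R and from 640.0 over 660.8 to 671.3 CPM in WT, a log2 difference of -0.04 ± 0.02. As a marker of vesicle membrane at large, Syp thus showed no difference beyond its spread, with an edgeR adjusted p of 0.494 and a 95% interval of -0.09 to 0.01.

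Cplx1 ran from 828.7 over 887.1 to 920.3 CPM in C201R and from 882.8 over 922.1 to 945.2 CPM in WT, with a log2 difference of -0.05 ± 0.03 (edgeR adjusted p of 0.506). Syt11 ran from 958.5 over 985.3 to 1014 CPM and from 1007 over 1012 to 1042 CPM, with -0.03 ± 0.02 (edgeR adjusted p of 0.537). The ranges of both genes overlapped between the groups.

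By role, the fitted values were as follows. Of the 6 vesicle membrane and synapsin genes, 5 were below 0, with a median of -0.05, and none passed. Of the 9 synaptotagmins and related genes, 7 were below 0, with a median of -0.02, and none passed. Of the 9 genes of SNAREs, complexins and SNARE disassembly, 6 were below 0, with a median of -0.04, and none passed. Rab3b was the 1 of 4 Rab3 genes that passed. Of the 8 active-zone rows, 5 were below 0, with a median of -0.01, and none passed: Rims1 had -0.01 ± 0.04, Bsn -0.01 ± 0.05 and Unc13a -0.06 ± 0.05. Each of these medians stands beside 0.00 for all genes tested.

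By title, no member passed, and the background was 0 of 17765 genes (0%). DESeq2 also passed no member, though it passed 18 of all genes. At an unadjusted p under 0.05 there was 1 member (2.78%), Rab3b, against 6.77% of all genes. Rab3b ran from 16.9 over 18.1 to 21.1 CPM in the libraries titled C201R and from 17.1 over 21.8 to 25.3 CPM in those titled WT. The groups overlapped widely, and the log2 difference was -0.21 ± 0.09 with an edgeR adjusted p of 0.719.

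Vamp1 by title ran from 941 over 983.7 to 1037 CPM in C201R and from 995.4 over 1021 to 1035 CPM in WT, with a log2 difference of -0.04 ± 0.03 and an edgeR adjusted p of 0.813. Cplx2 ran from 260.8 over 281.5 to 292.1 CPM and from 250.4 over 269.1 to 281.5 CPM, with 0.06 ± 0.04 and 0.826. Sv2b, apart by library name, overlapped by title, with -0.04 ± 0.05 and an edgeR adjusted p of 0.916. Over the list 25 of 36 members were below 0 (69.4% against 49.3% of all genes), with a median of -0.01, and the intervals of 33 lay within 1.2-fold.

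In the 8 libraries with 1 genotype label, no member passed, against 0.158% of 18384 genes tested, and 4 had an unadjusted p under 0.05 (11.1% against 12.7%). Rab3b ran from 16.9 over 17.5 to 18.8 CPM in the 4 C201R libraries and from 20.6 over 23.2 to 25.3 CPM in the 4 WT libraries. These did not overlap, and the log2 difference was -0.38 ± 0.07 with an edgeR adjusted p of 0.0921. The adjusted p was 0.0053 with DESeq2.

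Sv2b (at most 126.3 CPM against at least 127.9 CPM) and Vamp1 (at most 991 CPM against at least 1011 CPM) were also apart in these 8 libraries, with log2 differences of -0.13 ± 0.04 and -0.09 ± 0.03 and edgeR adjusted p of 0.203 and 0.251. With Rab3b they made 3 of 36 members (8.33%) without overlap, which is near the 8.31% of all genes. The median over the members was -0.03, and 32 of 36 intervals lay within 1.2-fold.

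The wider presynaptic apparatus was described with a second list. Of 89 other genes listed for vesicle membranes, further synaptotagmins, SNARE regulators, active zone and vesicle endocytosis, 87 were in the tables and 85 were tested. None passed with edgeR (DESeq2 passed 1, Unc13d), while 11 had an unadjusted p under 0.05 (12.9% against 12.8% of all genes), 9 of them lower in C201R. The median log2 difference was -0.02, and 51 of 85 were below 0 (60.0% against 49.1% of all genes). Of the intervals, 78 (91.8% against 57.7% of all genes) lay within 1.2-fold.

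Unc13d, which encodes a Munc13 protein of secretion in blood cells, ran from 11.7 to 14.5 CPM in C201R and from 14.7 to 18.6 CPM in WT, the only 1 of the 85 whose groups did not overlap. Its log2 difference was -0.28 ± 0.07 with an edgeR adjusted p of 0.113. Ston2, an adaptor for synaptotagmin retrieval, had -0.15 ± 0.04 (adjusted p of 0.115), Snap29 -0.13 ± 0.04 (0.162), Vamp3 -0.15 ± 0.05 (0.198) and Syt12 0.11 ± 0.04 (0.277). Clathrin heavy chain (Cltc) had -0.06 ± 0.02 (0.306), Rab3il1 0.16 ± 0.07 (0.362), Scamp1 -0.07 ± 0.04 (0.429), Scamp5 -0.05 ± 0.02 (0.468) and Cadps -0.05 ± 0.03 (0.469). By title and in the 8 libraries none of the 85 passed with edgeR, and 1 (1.18% against 6.77% of all genes) and 10 (11.8% against 12.7%) had an unadjusted p under 0.05.

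More members passed along the library number than between the genotypes. This comparison was added after seeing the data: the library number, 1 to 12, entered as a linear term beside library-name genotype and titled sex, and the labels do not say what the number stands for. Over the 11 steps from library 1 to library 12, 7 of 36 members changed (19.4%), against 6.38% of all genes tested. Of these, 6 were higher at higher numbers, namely Syn1, Unc13a, Syn2, Stx1a, Rph3a and Nsf (background 2.41%), and the second Pclo ID was lower. At an unadjusted p under 0.05 there were 17 members (47.2%), against 23% of all genes.

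Stx1a ran from 13.2 to 15.2 CPM in libraries 1 to 8 and from 16.4 to 17.0 CPM in libraries 9 to 12. Syn1 ran from 333.9 to 366.2 and from 367.4 to 384.9 CPM, and Syn2 from 218.2 to 242.1 and from 244.4 to 247.8 CPM. For these 3 genes libraries 9 to 12 all lay above libraries 1 to 8, although they hold both genotypes under either label. The fitted change over the 11 steps was 0.38 ± 0.07 on the log2 scale for Stx1a (edgeR adjusted p of 0.0198), 0.22 ± 0.03 for Syn1 (0.0135) and 0.19 ± 0.04 for Syn2 (0.0181).

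Unc13a changed by 0.28 ± 0.05 (edgeR adjusted p of 0.0139), with 164.8 to 197.4 CPM in libraries 1 to 8 and 197.3 to 205.0 CPM in libraries 9 to 12. Rph3a changed by 0.15 ± 0.04 (0.0366) and Nsf by 0.13 ± 0.03 (0.0492), both with overlapping ranges. The second Pclo ID changed by -0.82 ± 0.18 (0.0253), and it ran from 11.3 to 18.7 CPM in libraries 1 to 8 and from 10.7 to 12.5 CPM in libraries 9 to 12, which overlapped. Rab3b, by contrast, had 0.05 ± 0.12 along the number (edgeR adjusted p of 0.845) and Sv2b -0.03 ± 0.05 (0.791).

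**Figure D5:**
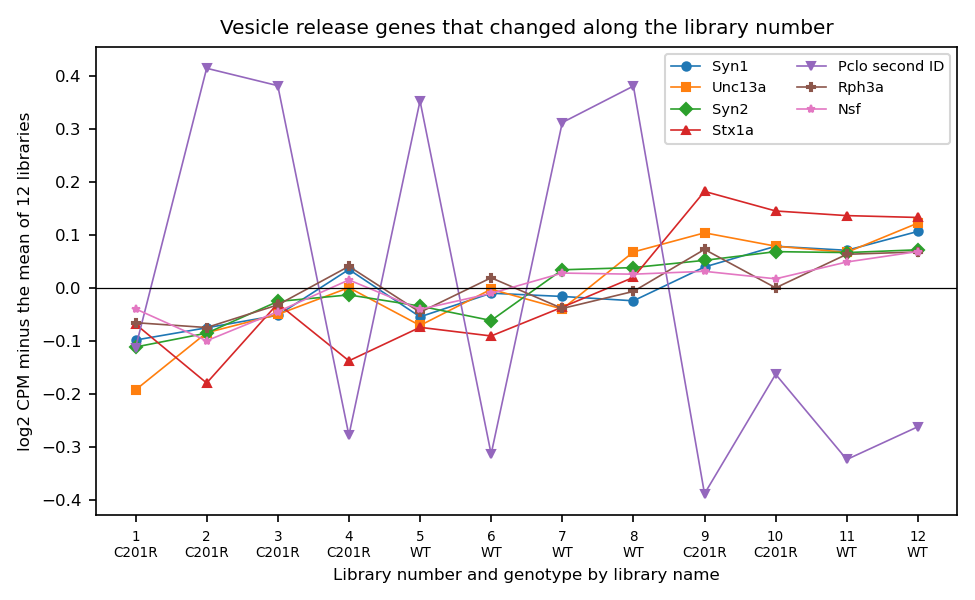
The 7 members that changed along the library number, as log2 CPM minus the mean of the 12 libraries, against the library number with the library-name genotype beneath. Syn1, Syn2 and Stx1a are highest in libraries 9 to 12. The second Pclo ID switches between high and low libraries among 1 to 8 and is low in 9 to 12.

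These calls were sensitive to single libraries and to the sex term, and so was the background. Without library 9, 1 member passed (2.78%) against 0.333% of all genes, and without library 2, 2 passed (5.56%) against 1.42%. Without library 10, 3 passed (8.33%) against 1.33%. Without library 1, 5 or 11, 4 passed (11.1%) against 1.33%, 2.13% and 3.13% of all genes. Without library 6, 11 passed (30.6%) against 9.34%, and without the sex term 4 passed (11.1%) against 0.383%. Leaving out library 3, 7 or 12 left 5 members (13.9%) against 2.83%, 3.09% and 3.22% of all genes. On the TPM scale with a pseudocount of 1, the median of all genes itself moved by 0.12 over the 11 steps. There 19 members passed (52.8%, against 15.2% of all genes), 18 of them higher. Of 17765 genes tested in CPM, 428 were called higher and 706 lower, against 2282 and 189 of 16270 on that TPM scale. Relative to that median, Stx1a was higher by 0.35 and Syn1 by 0.21, and 27 of 36 members lay above it, as many as in CPM. Muscle, fat and red blood cell markers were lower at higher numbers (11 of 11, 5 of 5 and 7 of 7 tested genes below 0, of which 0, 0 and 4 passed). All 8 leukocyte genes and all 10 motor neuron genes tested were below 0 as well, of which 0 and 1 passed. Of the 12 pan-neuronal markers 9 were above 0, 3 passed (25.0%), 2 of them higher, and 5 had an unadjusted p under 0.05 (41.7%). Of the 7 genes of excitatory and inhibitory neurons 4 were above 0 and 3 below, and none had an unadjusted p under 0.05. Some neuronal genes outside the list thus moved along the number too, but the neuronal lists did not move alike. The part of these markers in the members' change was not tested. Among the 85 other presynaptic genes, 17 passed (20%), 15 of them higher, led by the endocytosis gene Dnm1 at 0.20 ± 0.03 (edgeR adjusted p of 0.0123) and the RIM gene Rims3 at 0.21 ± 0.04 (0.0208), and Vamp4 and Sypl were lower.

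With the library number as a further term in the comparison of library-name genotypes, 1 member passed, which was Snap25 in place of Rab3b. Snap25 then had a log2 difference of -0.13 with an edgeR adjusted p of 0.0486, and Rab3b had -0.31. In that fit 15 of 36 members were below 0, against 26 without the term.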

How the data were processed

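Total RNA of whole spinal cord was made into stranded polyA libraries and sequenced as 75-base paired reads, per the labels' protocols. Bowtie2 2.2.0 and RSEM 1.2.12 were used, per the submitters' processing notes. Genome build, annotation and use of strand in counting were not given in the sources used here. The authors deposited 1 table per library with an expected count, a TPM and an FPKM per gene, per the file headers; the FPKM column was not used. The expected counts as deposited are estimates, of which 18.9% are not whole, and were rounded. The deposited TPM values were used for levels and shares, and in limma fits on log2(TPM + 1) and log2(TPM + 0.1) for genes with a mean above 1.

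Genes were filtered with filterByExpr, and TMM scaling was followed by edgeR 4.0.16 under R 4.3.3 (glmQLFit and glmQLFTest, the quasi-likelihood test). P-values were adjusted by Benjamini-Hochberg across every gene that entered the fit, and 0.05 was the threshold. Titled sex was a term. The SE is the log2 difference over the root of its F statistic, and 95% intervals are not adjusted. A group does not overlap another where its whole CPM range lies apart. DESeq2 1.42.0, limma 3.58.1, RLE, other filters and terms, and leaving out each library were alternatives. The library number and the fit without the 4 libraries with over 0.15% of TPM in muscle markers were added after seeing the data. The fits were also run on simulated counts with planted differences. Those counts lacked the varying muscle and blood content and the conflicting labels of these libraries, so they do not test the effect of either. Python 3.11.15 was used for joins.

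The members and gene lists were chosen with earlier results of these data known. Values are given for each member that passed, the 10 of lowest p by library name and the 3 by title, and for the 2 other presynaptic genes of lowest p in each list where none passed. The 7 members that passed along the library number were named after their values were seen. The labels do not say that libraries came from separate animals, so the p-values rest on variation among the sequenced libraries, which may be technical. No pair of libraries agreed within sampling noise (chi-square per degree of freedom at least 6.50 over 66 pairs). Reads carried no molecular identifiers. Positions came from GENCODE M21, matched by gene ID, for 35 of the 36 IDs, all but the second Pclo ID, and 14 of them share exon sequence with another gene.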

Additional observations from a re-analysis of the deposited data

Results flagged for a closer look

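Over 76 groups of 6 libraries, 4 had 1 library far from the other 5, where about 1 in 20 groups is reached by chance. By library name, Vamp1 in WT was lowest in library 7 at 1011 CPM, against 1028 to 1037 in the others, so that library sets the gap to the highest C201R library. In the same group Syp was lowest in library 6 at 640.0 CPM, against 660.3 to 671.3, and Syt11 was highest in library 11 at 1042 CPM, against 1007 to 1015. By title, Syt11 in WT was lowest in library 4 at 990.8 CPM, against 1007 to 1015. Neither Syt11 nor Syp passed in any of the 3 genotype comparisons.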

How the results depend on the processing

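No paired analysis was possible because each library carries its own number from 1 to 12, so no number is shared between groups. By library name, the count of members that passed, 1 in the comparison reported, was 2 with DESeq2, with voom or with no sex term, 0 on the TPM scale with either pseudocount, 0 without the libraries rich in muscle transcripts, and 0 to 2 on leaving out 1 library. In the 8 libraries it was 1, Rab3b, with DESeq2, with no filter, with voom or with no sex term, and 0 otherwise. By title it was 0 in every setting. Over all 17765 genes by library name, 318 passed with DESeq2, 162 with voom, 142 with no sex term and 235 with the library-number term. Over the 18384 genes in the 8 libraries, 252 passed with DESeq2, 242 with voom and 70 with no sex term. With no filter there, 91 of 26367 passed. Of the other presynaptic genes, by library name 1 passed with DESeq2, 2 with the library number as a term, and 0 to 1 on leaving out 1 library. Along the library number, 12 members passed with DESeq2 (33.3%, against 8.95% of all genes). On the TPM scale 19 passed with either pseudocount (52.8%, against 15.2% and 15.0%). With no sex term or no genotype term 4 passed (11.1%, against 0.383% and 1.68%). Without the libraries rich in muscle transcripts 3 passed (8.33%, against 3.38%), and on leaving out 1 library 1 to 11 passed. Small differences that did not pass changed sign: by title on the TPM scale, Sv2c (0.0089 and 0.009), Syp (0.0204) and Syt11 (0.0139), in the 8 libraries on that scale Syp (0.0048) and Syt11 (0.0047), and by title without the libraries rich in muscle transcripts Sv2c (0.0474) and Syp (0.0055). On leaving out 1 library, signs also changed by title for Sv2c (-0.0471 to 0.0134), Syp (-0.0157 to 0.0008), Syt4 (-0.0853 to 0.0019) and Syt7 (-0.0028 to 0.0255), and Cplx2 by library name ran from a value rounding to 0 up to 0.0426. Over all 36 members, the sign changed in some setting for 20 by library name, 23 by title and 19 in the 8 libraries. The cause was not tested. Over all genes, the calls by library name were 97 lower and 30 higher, 22 and 13 on the TPM scale and 225 and 93 with DESeq2, and in the 8 libraries 29 in all, 252 with DESeq2 and 5 on the TPM scale with a pseudocount of 1. Rab3d, with 95 to 248 counts and 3.54 to 8.68 CPM per library, had the widest interval among the members by library name, from -0.69 to 0.19.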

Other observations

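The second Pclo ID, which GENCODE M21 does not list, had values in separate ranges. Libraries 2, 3, 5, 7 and 8 had 18.7, 18.3, 17.9, 17.4 and 18.2 CPM. Libraries 1, 4, 6, 9, 10, 11 and 12 had 12.95, 11.55, 11.3, 10.7, 12.5, 11.2 and 11.7 CPM. Both ranges hold libraries of each genotype under either label. The first Pclo ID ran from 172.3 CPM in library 1 to 220.2 CPM in library 9 and had no such gap.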
